A study of Mus musculus with 2 samples.

Results

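The genes described here are 10 chromatin, metabolic and transcription factor genes that are recurrently mutated in human myeloid neoplasms: Tet2, Dnmt3a, Asxl1, Runx1, Setbp1, Idh1, Idh2, Stag2, Cux1 and Etv6. They were taken by symbol from a table of 12860 genes, and all 10 were found in it. The table holds RNA sequencing counts of unsorted whole bone marrow from 2 mice on a C57BL/6 background. The P95H mouse carried the Srsf2 P95H change on 1 allele, was treated with tamoxifen in vivo, carried R26CreERT2, a tamoxifen-activated Cre recombinase at the broadly active Rosa26 locus, and was a female of 14 weeks. The WT mouse had an unchanged Srsf2 gene and the same Cre and tamoxifen treatment, and was a male of 12 weeks. With 1 library from each marrow there was no replicate check and no test, and genotype, sex, age and mouse cannot be told apart. Intervals in brackets are 95% intervals and cover counting error only.

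Srsf2 encodes a splicing factor, and in human myeloid neoplasms its P95H change is often found together with mutations in TET2, ASXL1, RUNX1, IDH2 and STAG2. The genes of the list act at different levels. Dnmt3a adds methyl groups to cytosines in CG pairs and Tet2 oxidises them, a reaction that uses 2-oxoglutarate, which the isocitrate dehydrogenases Idh1 and Idh2 make. Asxl1 is the cofactor of the histone deubiquitinase Bap1, Setbp1 binds the phosphatase inhibitor Set, and Stag2 is a subunit of the cohesin ring that holds DNA loops and sister chromatids. Runx1, Cux1 and Etv6 bind DNA and control blood cell differentiation.

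Promoter windows are shown for Asxl1, Tet2 and Dnmt3a because these are the genes with a window whose counting interval excluded a ratio of 1 under each of the 5 library scalings described below. Each window holds 300 bases, 250 before and 50 after a transcription start, from RefSeq on build GRCm38.p6, and capitals mark CG pairs, the sites on which Dnmt3a and Tet2 act. The table of windows matched 8 of the 10 genes, with 12 windows in all, and the genes without a window are Setbp1 and Stag2. For Dnmt3a the most upstream of 3 windows is printed.
Asxl1, chr2:153345580-153345879, plus strand: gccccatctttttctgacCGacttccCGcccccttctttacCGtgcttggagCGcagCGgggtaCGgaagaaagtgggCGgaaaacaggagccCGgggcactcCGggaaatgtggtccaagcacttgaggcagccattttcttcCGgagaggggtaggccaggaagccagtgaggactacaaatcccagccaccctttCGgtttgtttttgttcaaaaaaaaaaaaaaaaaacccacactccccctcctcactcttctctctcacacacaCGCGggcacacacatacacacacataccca
Tet2, chr3:133544341-133544640, minus strand: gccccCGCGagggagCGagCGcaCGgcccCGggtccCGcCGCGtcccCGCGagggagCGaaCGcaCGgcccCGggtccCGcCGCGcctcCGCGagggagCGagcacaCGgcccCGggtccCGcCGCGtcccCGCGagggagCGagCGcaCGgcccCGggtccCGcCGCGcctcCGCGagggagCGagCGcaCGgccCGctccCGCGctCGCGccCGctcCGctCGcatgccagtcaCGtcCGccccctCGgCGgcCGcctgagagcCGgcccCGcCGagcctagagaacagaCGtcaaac
Dnmt3a, chr12:3806730-3807029, plus strand: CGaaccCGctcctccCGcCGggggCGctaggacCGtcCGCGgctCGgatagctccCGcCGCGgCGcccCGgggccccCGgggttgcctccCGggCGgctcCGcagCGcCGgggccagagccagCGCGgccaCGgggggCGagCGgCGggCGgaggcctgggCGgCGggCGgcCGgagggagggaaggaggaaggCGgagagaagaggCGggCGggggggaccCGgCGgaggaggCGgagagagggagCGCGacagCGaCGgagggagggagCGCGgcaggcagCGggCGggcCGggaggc
The Asxl1 window held 13 CG pairs, the Tet2 window 57 and the Dnmt3a window 46. The median over the 12 windows of the list was 23 CG pairs, against 7 over all 32851 windows of the table. That table was not restricted to the 12860 genes measured here, so the medians do not compare the list with other expressed genes. The 12 windows come from 8 genes, and some windows of Dnmt3a overlap. The ETS core CCGGAA, the sequence type that Etv6 and its relatives bind, was found on either strand in 2 of the 12 windows (16.7%), 1 of Asxl1 and 1 of Runx1, and in 14.9% of all windows. The RUNX core TGNGGT was found on either strand in 6 of the 12, including the Asxl1 window above, and in 45.8% of all. No ETS match overlapped a RUNX match in these 12 windows. A match describes these letters and is no evidence of binding.

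Most of the 10 genes had nearly the same level in both libraries, and a single gene, Setbp1, was past 2-fold. Depth was similar, with 42366695 counts over all listed genes for P95H marrow and 44733445 for WT marrow. Levels are given as deposited by the authors in CPM, read counts scaled to library size. All 12860 genes had over 1 CPM in at least 1 library, so shares over all genes are shares of expressed genes. A scarce gene can be listed through its higher library alone. Genes of a list that are absent from the table are left out, and measured genes are those found in it. A difference is the log2(CPM + 1) value of P95H marrow less that of WT marrow, a scale that understates differences of low genes. By this difference 0 of the 10 genes were at least 2-fold higher in P95H marrow, where 1.76% of all 12860 genes were, 1 was at least 2-fold lower, where 2.10% were, and 9 lay between, while 3.86% of all genes were past 2-fold in either direction. Over all genes 226 were higher and 270 lower, a split of 134 and 463 with the plain totals described below. The median difference of the 10 genes was 0.08, against -0.0035 over all genes. Of the 10 genes 7 lay above 0 and 3 below, and of all 12860 genes 6387 lay above 0 and 6473 below. The counts of every list below stand beside these shares over all genes. The quartiles over all genes were -0.23 and 0.22, and 6 of the 10 genes lay between them. The others were Setbp1 (-1.21) and Dnmt3a (-0.56) below the range, and Asxl1 (0.36) and Tet2 (0.31) above it.

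**Figure D1:**
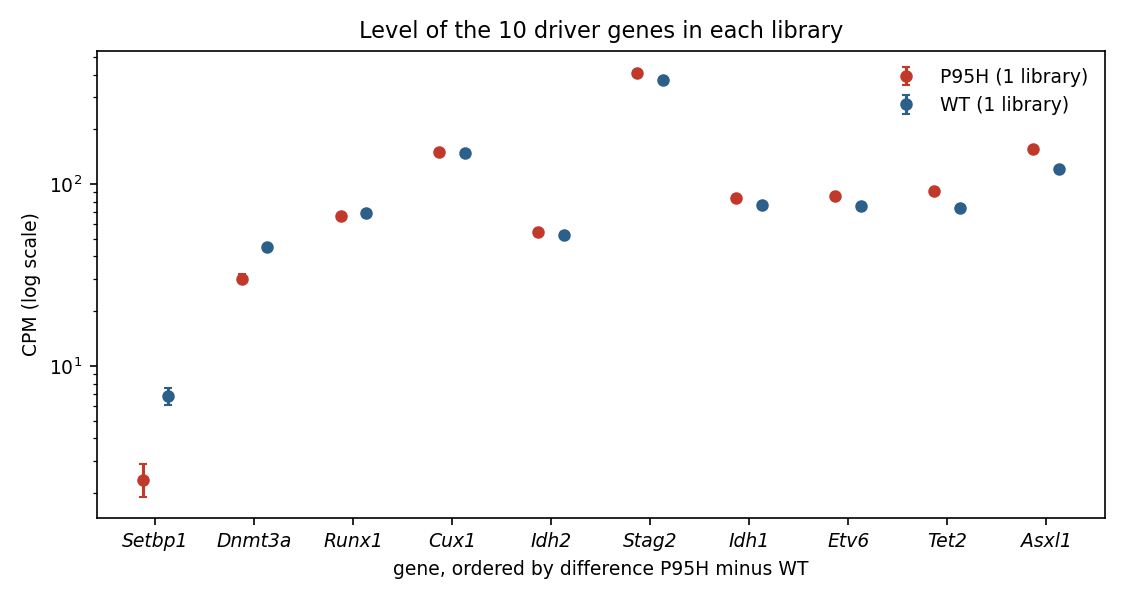
CPM (log axis) of each driver gene in P95H marrow (red) and WT marrow (blue), with 95% Poisson counting intervals as bars; genes run from the lowest to the highest difference. Setbp1 had 2.37 CPM in P95H marrow and 6.81 CPM in WT marrow, and the other genes lay above 30 CPM in both.

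**Figure D2:**
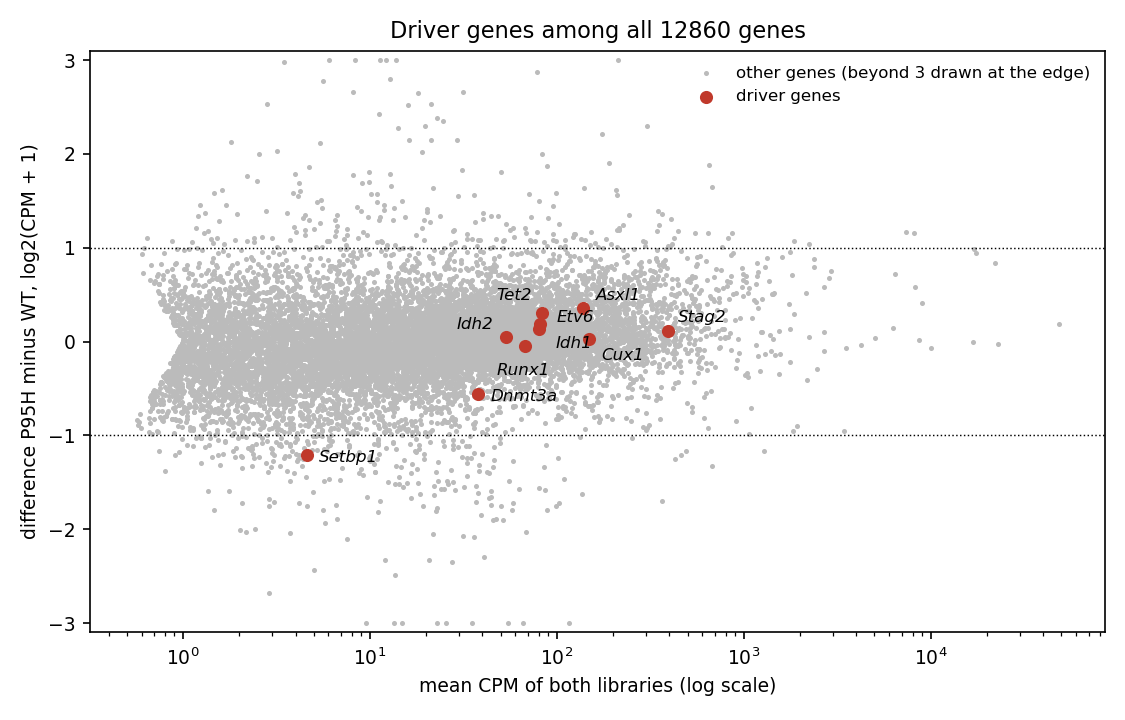
Difference (P95H less WT, log2(CPM + 1)) against mean CPM (log axis) for all 12860 genes (grey) with the driver genes in red; dotted lines mark 2-fold. Setbp1, at -1.21, is the one driver gene outside the dotted lines.

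Directions of small differences depended on the library scaling. The deposited CPM put P95H marrow at an effective size of 39696495 reads and WT marrow at 47880724, while plain totals of listed counts multiply every ratio of P95H over WT by 0.875, and totals that leave out haemoglobin and the top 20 genes of each library by 0.908. TMM (factor 0.997) and DESeq2 size factors (1.00) lay close to the deposited scaling. Under these 5 scalings Setbp1, Dnmt3a and Runx1 were lower in P95H marrow each time and Asxl1 and Tet2 higher each time. The other 5 genes, Idh1, Idh2, Stag2, Cux1 and Etv6, were above 1 with the deposited CPM and below 1 with plain totals. The counting interval excluded a ratio of 1 under all 5 scalings for 4 genes, Setbp1, Dnmt3a, Asxl1 and Tet2. The share of all genes that meet this was not counted, so it does not set the 4 genes apart. With the deposited CPM the interval lay above 1 for 5 of the 10 genes, where it did so for 34.1% of all genes. It lay below 1 for 2 of the 10 genes, where it did so for 32.8% of all genes.

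**Figure D3:**
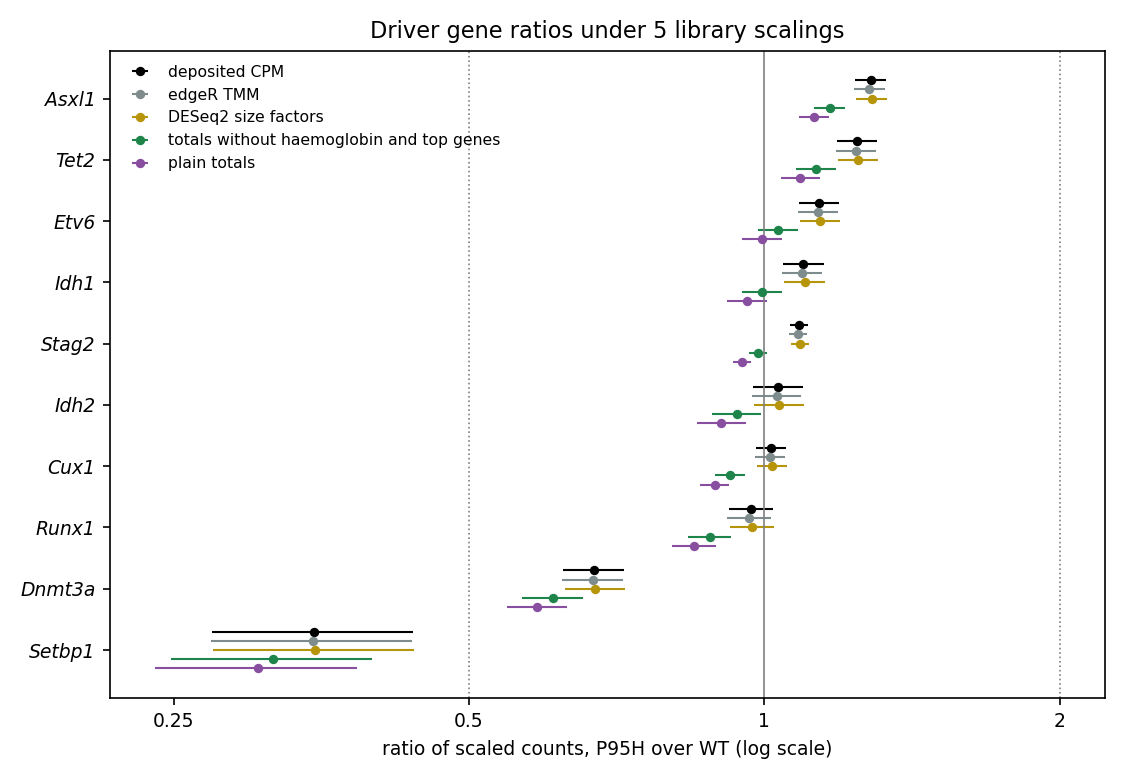
Ratio of scaled counts, P95H over WT (log axis), for each driver gene under 5 library scalings, with 95% counting intervals as bars; dotted lines mark 2-fold. Setbp1 ranges from 0.304 to 0.349 and Asxl1 from 1.12 to 1.29, while Idh1, Idh2, Stag2, Cux1 and Etv6 have points on both sides of 1.

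The driver genes Dnmt3a and Tet2 lay on opposite sides of equality, while other enzymes of DNA methylation, given in the next paragraph, do not divide in this way. Dnmt3a, the de novo DNA methyltransferase, had 1200 counts (30.2 CPM) in P95H marrow and 2159 counts (45.1 CPM) in WT marrow. Its ratio was 0.670 (0.624 to 0.720), and 8.74% of all genes had a lower difference. Tet2, the 5-methylcytosine dioxygenase, had 3654 counts (92.0 CPM) in P95H marrow and 3545 counts (74.0 CPM) in WT marrow. Its ratio was 1.24 (1.19 to 1.30), and 18.8% of all genes had a higher difference. With plain totals the ratio was 0.587 for Dnmt3a and 1.09 for Tet2. Both differences were smaller than 2-fold. Beside them, neutrophil markers summed to 108090 CPM in P95H marrow and 55908 CPM in WT marrow, and stem and progenitor markers to 170 CPM and 248 CPM. In unsorted marrow fewer cells of a type and less RNA per cell cannot be told apart, and the part of these shifts in the Dnmt3a and Tet2 differences was not tested.

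The paralogues Tet1 and Tet3 were lower in P95H marrow, unlike Tet2. Among 16 measured genes of the DNA methylation list, 15 lay within 2-fold by the difference and 1 was past it on the lower side. By the ratio, without the added 1, Tet1 and Dnmt3l were past 2-fold as well. Of the 16 genes 5 lay above 0 and 11 below, with a median of -0.13 (-0.32 with plain totals). Tet1 had 203 counts in P95H marrow and 521 in WT marrow, a ratio of 0.470 (0.398 to 0.554), which is -0.96 as a difference. Tet3 had 3164 and 4826 counts, a ratio of 0.791 (0.756 to 0.827). The other de novo enzyme, Dnmt3b, had 249 counts in P95H marrow and 404 in WT marrow, and the maintenance enzyme Dnmt1, at 376 and 400 CPM, had a ratio of 0.940 (0.920 to 0.961). Cxxc5, a CG-binding zinc finger protein related to the CXXC domains of the TET family, was the gene past 2-fold by the difference. It had 307 counts in P95H marrow and 1145 in WT marrow (ratio 0.323, 0.284 to 0.367). The base excision glycosylase Mbd4 was at a difference of -0.55. Dnmt3l, a catalytically inactive cofactor, was scarce, with 54 counts in P95H marrow and 18 in WT marrow. Its ratio was 3.62 (2.09 to 6.56), which is 0.78 as a difference. It had 1.36 CPM in P95H marrow and 0.376 CPM in WT marrow. Dnmt3l is therefore in the table only through its higher library, a selection that favours a ratio away from 1.

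The isocitrate dehydrogenases differed little between the libraries. Cytosolic Idh1 had 3334 counts (84.0 CPM) in P95H marrow and 3668 counts (76.6 CPM) in WT marrow, a ratio of 1.10 (1.05 to 1.15) that was 0.960 with plain totals. Mitochondrial Idh2 had 2159 counts (54.4 CPM) in P95H marrow and 2522 counts (52.7 CPM) in WT marrow, a ratio of 1.03 (0.974 to 1.09) that was 0.904 with plain totals. Neither gene had a direction that held across scalings. Of 14 genes of neighbouring reactions, all 14 lay between the 2-fold limits, 10 above 0 and 4 below, with a median of 0.13 that was -0.058 with plain totals. The dehydrogenase D2hgdh, which clears the 2-hydroxyglutarate that mutant isocitrate dehydrogenases make, had 704 counts in P95H marrow and 601 in WT marrow (ratio 1.41, 1.27 to 1.58). The aspartate aminotransferases Got2 and Got1 had ratios of 1.39 and 1.26, and the cytosolic aconitase Aco1 had 0.795 (0.725 to 0.872).

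Asxl1 was the highest of the 10 genes by difference. It had 6178 counts (156 CPM) in P95H marrow and 5806 counts (121 CPM) in WT marrow, a ratio of 1.28 (1.24 to 1.33) that was 1.12 with plain totals, and 15.8% of all genes had a higher difference. Its paralogue Asxl2 was on the other side, with 2739 counts in P95H marrow and 4295 in WT marrow (ratio 0.769, 0.733 to 0.807). The deubiquitinase Bap1 had 2737 counts in P95H marrow and 3358 in WT marrow, with a ratio of 0.983 (0.934 to 1.03). All 9 measured genes of the ASXL and BAP1 list lay between the 2-fold limits, 3 above 0 and 6 below, with a median of -0.15. Among them the histone demethylase Kdm1b was lowest, with 664 counts in P95H marrow and 1377 in WT marrow (ratio 0.582, 0.529 to 0.639), Foxk2 was at -0.28 and Mbd6 at 0.35.

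Runx1, the DNA-binding subunit of core binding factor, was close to equal with the deposited CPM. It had 2653 counts (66.8 CPM) in P95H marrow and 3304 counts (69.0 CPM) in WT marrow, a ratio of 0.969 (0.920 to 1.02) that was 0.848 with plain totals. Its partner Cbfb had a ratio of 1.04 (0.997 to 1.08). The RUNX and core binding factor list held 9 genes, 8 of them within 2-fold and 1 lower than that, with 3 above 0, 6 below and a median of -0.09. That gene was the corepressor Runx1t1, known as the fusion partner of RUNX1 in human leukaemia, with 45 counts in P95H marrow and 219 in WT marrow (ratio 0.248, 0.176 to 0.343). The related corepressors Cbfa2t3 and Cbfa2t2 were at -0.34 and -0.18, and the corepressor Tle3 at 0.38. Of 9 genes known as RUNX1 targets in blood cells, 0 were past 2-fold by the difference. Of these 9 genes 6 lay above 0, and the median was 0.33 (0.13 with plain totals). Those higher in P95H marrow included the myeloid factor Spi1 (ratio 1.58, 1.54 to 1.62) and the neutrophil elastase gene Elane (1.47, 1.44 to 1.49). The platelet factor gene Pf4 was lower, with a ratio of 0.474 that is -0.92 as a difference. Elane is also a neutrophil precursor marker and Pf4 a megakaryocyte marker, and those lists are given further on.

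Etv6 and Cux1 also lay near equality. Etv6, a repressor of the ETS family that haematopoietic stem cells need, had 3430 counts (86.4 CPM) in P95H marrow and 3638 counts (76.0 CPM) in WT marrow, a ratio of 1.14 (1.09 to 1.19) that was 0.995 with plain totals. Cux1, a homeodomain factor that is lost with parts of human chromosome arms in myeloid disease, had 5941 counts (150 CPM) in P95H marrow and 7050 counts (147 CPM) in WT marrow, a ratio of 1.02 (0.982 to 1.05) that was 0.890 with plain totals. The other ETS genes had differences from -1.58 to 0.66. Among 16 measured ETS relatives of Etv6, 15 lay within 2-fold and 1 was past it on the lower side, 7 lay above 0 and 9 below, and the median was -0.04. Spi1, a myeloid and B cell factor, was the highest of them at 0.66, and Ets2 was at 0.47. Spib, a factor of B cells and plasmacytoid dendritic cells, had 1695 counts in P95H marrow and 6217 in WT marrow (ratio 0.329, 0.311 to 0.347), Ets1 had 7458 and 13626 (ratio 0.660, 0.642 to 0.679), and Elk3 was at -0.72. Of 7 measured corepressors reported to bind ETV6, 4 lay above 0 and 3 below, and the histone deacetylase Hdac9 was at least 2-fold lower, with 339 counts in P95H marrow and 1046 in WT marrow (ratio 0.391, 0.345 to 0.442). The acetyltransferase Kat5 was at 0.45 and the corepressor Ncor1 at 0.14, the last below 0 with plain totals. Satb1, a relative of Cux1 with CUT domains, had 1626 counts in P95H marrow and 3027 in WT marrow (ratio 0.648, 0.610 to 0.688).

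Setbp1, whose gain-of-function mutations in human disease stabilise the protein, had the largest difference of the list. It had 94 counts (2.37 CPM) in P95H marrow and 326 counts (6.81 CPM) in WT marrow. The ratio was 0.348 (0.273 to 0.439), a 2.88-fold lower level in P95H marrow with a counting interval of 2.28 to 3.66, and the difference of -1.21 corresponds to -1.52 without the added 1. Of all genes, 1.23% had a lower difference. Beside it, B lineage markers summed to 208 CPM in P95H marrow and 702 CPM in WT marrow, and stromal and endothelial markers to 214 CPM and 332 CPM, and their part in the Setbp1 difference was not tested. Among genes with a mean CPM under 10, as Setbp1 has, 2.88% were at least 2-fold lower, against 1.66% of the genes above that level. Its binding partner Set was nearly equal, with 183 CPM in P95H marrow and 194 CPM in WT marrow (ratio 0.943, 0.914 to 0.973). All 11 genes of the Set and phosphatase 2A list lay between the 2-fold limits, 8 above 0 and 3 below, with a median of 0.13 that was -0.061 with plain totals. The catalytic subunit gene Ppp2cb was at 0.47, the kinase gene Akt1 at 0.32, the scaffold gene Ppp2r1a at 0.23 and the regulatory subunit gene Ppp2r5d at 0.21. Of 6 measured genes tied to oncogenic SETBP1 or related self-renewal programmes, 0 passed 2-fold by the difference and 5 lay below 0. Myb had 7909 counts in P95H marrow and 14360 in WT marrow (ratio 0.664, 0.646 to 0.683), and Meis1 was at -0.45. Hoxa7, at -0.31, had only 44 counts in P95H marrow and 77 in WT marrow. Its ratio of 0.689 had an interval that included 1 (0.465 to 1.01). Hoxa9 had 141 counts in P95H marrow and 85 in WT marrow (ratio 2.00, 1.52 to 2.65), which is 0.71 as a difference.

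Stag2 had the highest level of the 10 genes per length of transcript. It had 16144 counts (407 CPM) in P95H marrow and 17950 counts (375 CPM) in WT marrow, a ratio of 1.08 (1.06 to 1.11) that was below 1 with plain totals. Of 14 other cohesin genes, all 14 lay between the 2-fold limits, 3 above 0 and 11 below, with a median of -0.10. The ring subunits Smc1a, Smc3 and Rad21 had ratios of 1.02, 0.929 and 1.11, the first and the last below 1 with plain totals. The deacetylase gene Hdac8 was lowest, with 252 counts in P95H marrow and 472 in WT marrow (ratio 0.644, 0.550 to 0.752), followed by Pds5b at -0.31, Esco2 at -0.21 and Ctcf at -0.19. Stag2 is an X-linked gene, and the P95H mouse was female and the WT mouse male. Of 13 X-linked genes picked from the driver and partner lists after values were seen, 4 lay above 0 and 9 below, with a median of -0.15. X-linked genes of the marker and check lists were not counted. Kdm6a, which escapes X inactivation, was the highest of these at 147 CPM in P95H marrow and 98.7 CPM in WT marrow, a difference of 0.57. The other escape genes Eif2s3x, Kdm5c and Ddx3x, which are not among the 13, were at 0.60, 0.53 and 0.27.

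Scaled to the longest protein-coding transcript of GENCODE M21, the level of the 10 genes per kilobase had the same order in both libraries except for Runx1 and Cux1. Stag2 had 65.9 CPM per kilobase in P95H marrow and 60.8 in WT marrow. Idh1 had 36.5 CPM per kilobase in P95H marrow and 33.3 in WT marrow, and Idh2 31.2 and 30.2. Asxl1 followed with 22.3 CPM per kilobase in P95H marrow and 17.4 in WT marrow. Etv6 had 15.1 CPM per kilobase in P95H marrow and 13.3 in WT marrow, Cux1 11.6 and 11.4, Runx1 11.4 and 11.8, and Tet2 10.03 and 8.07, so Cux1 and Runx1 are not separated in this order. Dnmt3a was at 3.12 CPM per kilobase in P95H marrow and 4.66 in WT marrow. Setbp1 was lowest, at 0.238 and 0.684. The transcript models are from another build than the authors', so these levels are approximate.

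Shares within families of paralogues do not depend on library scaling, and by this measure Tet2 and Asxl1 took a larger part of their families in P95H marrow. Tet2 made up 52.0% (exact binomial interval 50.9 to 53.2) of the 7021 counts of Tet1, Tet2 and Tet3 in P95H marrow and 39.9% (38.8 to 40.9) of 8892 in WT marrow, 12.2 percentage points more in P95H marrow. Asxl1 made up 69.3% (68.3 to 70.2) of the counts of Asxl1 and Asxl2 in P95H marrow and 57.5% (56.5 to 58.4) in WT marrow, a gap of 11.8 points. Stag2 made up 77.6% (77.1 to 78.2) of the counts of Stag1 and Stag2 in P95H marrow and 74.1% (73.5 to 74.6) in WT marrow, with Stag1 at a ratio of 0.893 (0.860 to 0.928). With the families taken as named here, the intervals of the other 4 shares overlapped between the libraries. Dnmt3a made up 82.8% of the Dnmt3a and Dnmt3b counts in P95H marrow and 84.2% in WT marrow. Dnmt3l (54 counts in P95H marrow and 18 in WT marrow) was left out of this family, and the overlap was not checked with it. Runx1 made up 67.2% of the Runx1, Runx2 and Runx3 counts in P95H marrow and 68.1% in WT marrow. Idh1 made up 60.7% of the Idh1 and Idh2 counts in P95H marrow and 59.3% in WT marrow, and Etv6 67.2% and 66.7% of the Etv6 and Etv3 counts. How far such shares vary between mice of 1 genotype is not known from 1 library each.

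**Figure D4:**
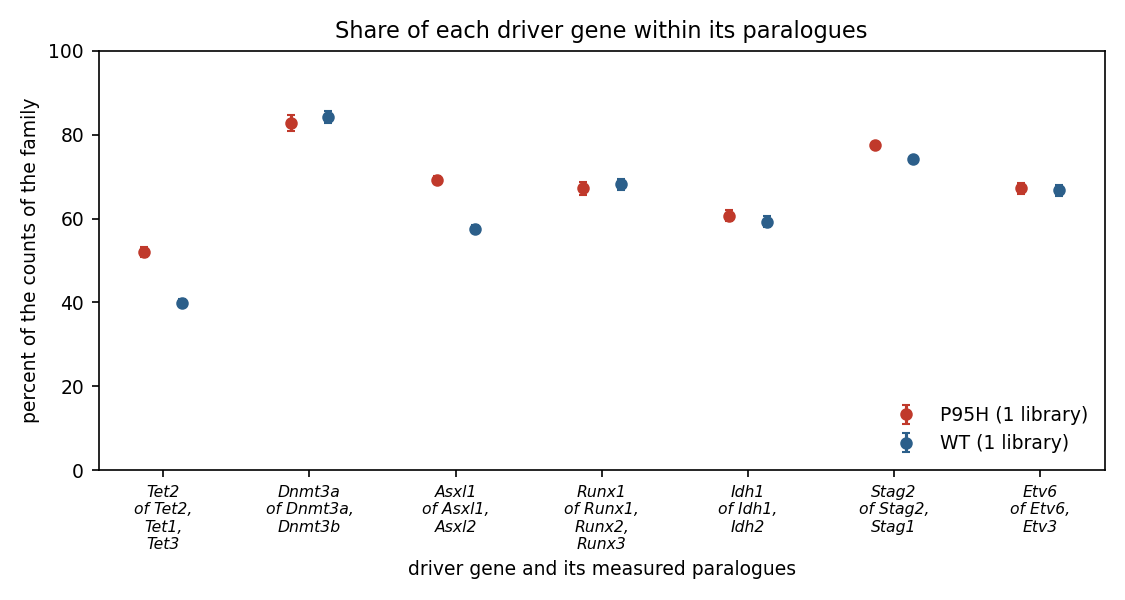
Percent of the counts of each paralogue family that belong to the driver gene, in P95H marrow (red) and WT marrow (blue), with exact 95% binomial intervals as bars. Dnmt3l is left out of the Dnmt3a family. The Tet2 share is 52.0% in P95H and 39.9% in WT and the Asxl1 share 69.3% in P95H and 57.5% in WT, while the Idh1, Runx1, Dnmt3a and Etv6 shares overlap.

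Marker lists of marrow cell types had median differences from -1.75 to 0.90. Every marker found in the table, over 15 lists, had counts in both libraries, and the table holds only genes above 1 CPM in a library. The 14 neutrophil markers all lay above 0, with a median of 0.90 and a summed level of 108090 CPM in P95H marrow and 55908 in WT marrow, and Cxcr2 (1.30) and Lcn2 (1.17) lay highest. The 6 markers of neutrophil precursors also all lay above 0, summing to 3697 CPM in P95H marrow and 2626 in WT marrow, with Ctsg at 0.69 and Prtn3 at 0.67. With plain totals Cebpe (0.19) of the first list and Gfi1 (0.06) of the second lie below 0. All 14 B lineage markers lay below 0, 12 of them at least 2-fold lower, where 2.10% of all genes were. Their median was -1.75, with summed levels of 208 CPM in P95H marrow and 702 in WT marrow. Fcer2a (-2.33) and Ms4a1 (-2.07) were lowest. Erythroid markers, 15 of 15 below 0, summed to 10485 CPM in P95H marrow and 17639 in WT marrow, with Hba-a2 at -1.17 and Car1 at -1.01.

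Other marker lists that lay on the same side as Setbp1 and Dnmt3a were those of natural killer cells (7 of 7 below 0, 5.95 CPM in P95H marrow and 25.9 in WT marrow, Prf1 at -1.76 and Eomes at -1.68) and eosinophils (6 of 6 below 0, 1941 and 3633 CPM, Il5ra at -1.33 and Prg3 at -0.93). Basophil and mast cell markers (6 of 6 below 0) summed to 166 CPM in P95H marrow and 277 in WT marrow, with Gata2 at -0.87 and Ms4a2 at -0.83. Dendritic cell markers (6 of 7 below 0) summed to 54.8 CPM in P95H marrow and 91.2 in WT marrow, with Siglech at -1.17 and Cd209a at -1.14. Stromal and endothelial markers (10 of 12 below 0) summed to 214 CPM in P95H marrow and 332 in WT marrow, with Cdh5 at -0.88 and Cxcl12 at -0.80. Stem and progenitor markers (11 of 12 below 0) summed to 170 CPM in P95H marrow and 248 in WT marrow, with Angpt1 at -0.89 and Sox4 at -0.88. T cell markers (9 of 9 below 0) summed to 19.7 CPM in P95H marrow and 30.1 in WT marrow, with Bcl11b at -0.78 and Cd8a at -0.55. Megakaryocyte markers (6 of 8 below 0) summed to 130 CPM in P95H marrow and 147 in WT marrow, with Pf4 at -0.92.

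The remaining lists had smaller shifts or members on both sides. The monocyte and macrophage markers, 4 above and 4 below 0, summed to 2221 CPM in P95H marrow and 1670 in WT marrow, with Ly6c2 at 0.70 and Irf8 at -0.69. Plasma cell markers, 2 above and 3 below 0, summed to 340 CPM in P95H marrow and 418 in WT marrow, with Irf4 at -1.63 and Sdc1 at -0.70 on the lower side and Jchain at 0.46 and Xbp1 at 0.41 on the higher side. Markers of dividing cells, 4 above and 6 below 0 with a median of -0.09, summed to 5522 CPM in P95H marrow and 5768 in WT marrow, with Mcm2 at -0.23 and Pcna at -0.19 at the low end and Top2a at 0.05 at the high end. The part of these shifts in the Asxl1 difference was not tested either.

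**Figure D5:**
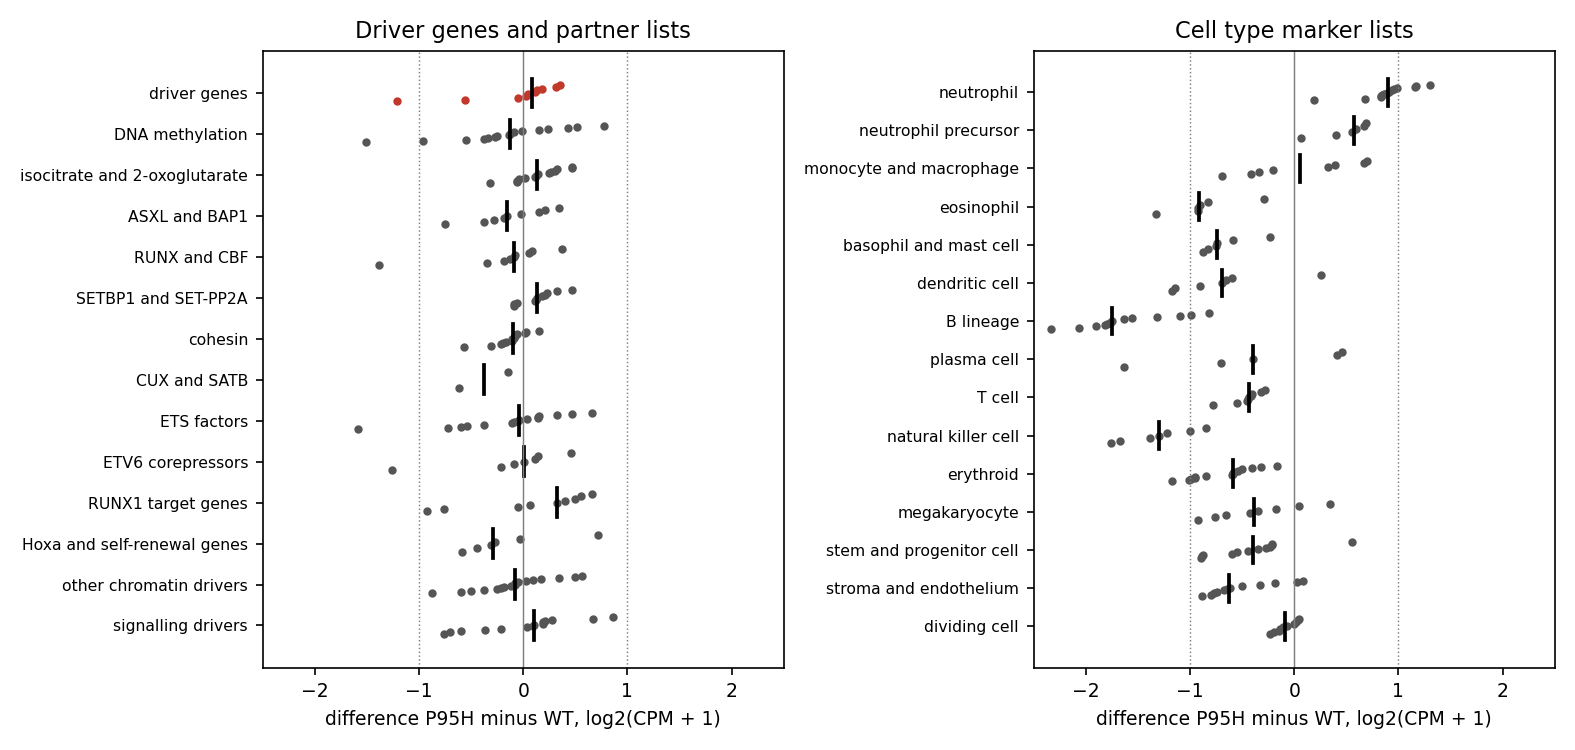
Differences (P95H less WT, log2(CPM + 1)) of the driver genes (red) and the partner lists at left and for the cell type marker lists at right; each point is a gene, black bars are medians and dotted lines mark 2-fold. The driver gene median is 0.08, that of neutrophil markers 0.90 and that of B lineage markers -1.75.

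The nearest measured gene on each side of the 10 genes, in the order of GRCm38.p6, gave 20 neighbours with a median of -0.04. Of these, 0 were at least 2-fold higher, where 1.76% of all genes were, and 1 was at least 2-fold lower, where 2.10% were. That neighbour was Slc14a1, the red cell urea transporter gene next to Setbp1, with 1003 counts in P95H marrow and 3141 in WT marrow (ratio 0.385). On the other side of Setbp1, the polarity gene Pard6g had 43 counts in P95H marrow and 105 in WT marrow. Its ratio of 0.494 is -0.62 as a difference, the measure used for the 2-fold counts. The neighbours of Dnmt3a, Dtnb and Dnajc27, had ratios of 0.955 and 0.823, and those of Tet2, Ppa2 and Cenpe, 1.01 and 0.902. Beside Asxl1, Nol4l had 96 counts in P95H marrow and 170 in WT marrow (ratio 0.681). On its other side, 2500004C02Rik had 107 counts in P95H marrow and 123 in WT marrow (ratio 1.05). The edited gene itself, Srsf2, had 9162 counts in P95H marrow and 10767 in WT marrow, a ratio of 1.03 (0.998 to 1.06) that was below 1 with plain totals, and a gene total does not show which allele is read. Of sex-linked genes, Xist had 16907 counts in P95H marrow and 23 in WT marrow, and the Y-linked gene Ddx3y had 0 and 6303, as the labelled sexes have it.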

How the data were processed

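Libraries were stranded, made from total marrow RNA after removal of ribosomal RNA, and sequenced in 1 run as pairs of 75 bp, per the labels' protocols. Build mm9, STAR 2.5.3a, featureCounts, edgeR, Picard 1.96, cutadapt and Trim Galore are named in the submitters' processing notes without their roles. The sources used here do not say whether counting used strand, so overlapping and antisense genes are uncertain. The authors deposited raw read counts per gene. They also deposited CPM, a normalised signal scaled to an effective library size, a log2 fold change and a fold ratio. The log2 fold change was checked and equals the log2 of the CPM ratio with 0.001 added to each CPM. The fold ratio was not checked, and neither was used.

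Differences were taken on log2(CPM + 1). With 1 library per genotype no edgeR quasi-likelihood test was possible, and a gene was called at a 2-fold difference. Ratios have exact conditional binomial intervals and shares exact binomial (Clopper-Pearson) intervals, which cover counting error only since the reads carry no molecular identifiers. Alternatives were pseudocounts of 0.1 and 5, plain totals, TMM (edgeR 4.0.16), size factors (DESeq2 1.42.0), totals leaving out haemoglobin and the top 20 genes, CPM filters of 10 in 1 library and 1 in both, and folds of 1.5 and 4. The steps were tested on simulated data, with Python 3.11.15 and scipy 1.17.1. Named genes are the 10 driver genes, up to 4 of each partner list and 2 of each marker list with the largest absolute difference, paralogues, Srsf2 and sex-linked genes. Some genes that this rule takes are not reported here. Beyond these, Dnmt1, Set, Bap1, Cbfb, Cebpe, Gfi1, Ets2, Jchain, Xbp1, Top2a, the cohesin ring subunits and the neighbouring genes were named after their values were seen. The driver genes and lists were chosen with earlier results of these data known. Gene order came from a RefSeq table that matched 12531 Entrez numbers (97.4%).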

Additional observations from a re-analysis of the deposited data

How the results depend on the processing

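The Setbp1 ratio lay between 0.304 and 0.349 over the 5 scalings. The count of 1 driver gene at least 2-fold lower became 0 with a pseudocount of 5, when 10 CPM in 1 library was required, which leaves Setbp1 out, and with a 4-fold limit. The count past the limit on the higher side was 0 under every alternative. The median difference of the 10 genes was 0.08 with the deposited CPM, -0.11 with plain totals and -0.057 when haemoglobin and the top 20 genes were left out of the totals, 2 scalings that move the median of all genes to -0.18 and -0.13.

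Over all genes 226 were higher and 270 lower. A pseudocount of 0.1 gave 367 higher and 593 lower, and one of 5 gave 125 and 107. Plain totals gave 134 higher and 463 lower, leaving haemoglobin and the top 20 genes out of the totals 477 lower, requiring 10 CPM in 1 library 154 lower, a 1.5-fold limit 906 higher and 1039 lower, and a 4-fold limit 31 and 24. Of the 140 measured partner genes, 0 were higher and 4 lower, beside 1.76% and 2.10% of all genes. A pseudocount of 0.1 gave 1 higher and 7 lower, one of 5 gave 2 lower, and both scalings named above gave 7 lower each. No paired analysis was possible because each genotype has 1 library, and no replicate could be left out. Setbp1, with 94 counts in P95H marrow, is the driver gene whose ratio is least precise.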

Other observations

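Other genes mutated in human myeloid neoplasms were mostly within 2-fold as well. Of 17 measured chromatin and transcription genes, 0 were past 2-fold, 6 lay above 0 and 11 below, with a median of -0.08. The progenitor factor Gata2 had 631 counts in P95H marrow and 1432 in WT marrow (ratio 0.531, 0.483 to 0.584), the corepressor Bcor had 1814 and 3339 (ratio 0.655, 0.619 to 0.694), and the erythroid and megakaryocyte factor Gata1 had 1571 and 2696 (ratio 0.703, 0.660 to 0.748). The histone demethylase Kdm6a, which escapes X inactivation, was the highest at a difference of 0.57.

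Of 14 signalling genes, 0 were past 2-fold, 9 lay above 0 and 5 below, with a median of 0.10 that was -0.087 with plain totals. The granulocyte colony-stimulating factor receptor gene Csf3r, also a neutrophil marker here, had 32130 counts in P95H marrow and 21278 in WT marrow (ratio 1.82, 1.79 to 1.85), and Notch1 had 7302 and 5501 (ratio 1.60, 1.55 to 1.66). The ubiquitin ligase gene Cblb had 699 counts in P95H marrow and 1405 in WT marrow (ratio 0.600, 0.547 to 0.658).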
